A study of Mus musculus with 27 samples.

Results

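Satellite cells are the stem cells of skeletal muscle, and the 10 genes described here are the regulators that set them aside, commit them to the muscle lineage and fuse them into fibres: Pax7, Myf5, Myod1, Myog, Myf6, Mymk, Mymx, Cdh15, Mef2c and Des. They were chosen by gene name, with earlier results of these data known, so that the choice was not independent of the values. Each name matched in both deposited expression tables. Thus 10 of 55852 entries were followed in the table of injured muscle and 10 of 55677 in the table with control muscle. RNA was sequenced from muscle of male mice injected with cardiotoxin (CTX, a venom peptide that lyses muscle fibres) on day 1, 4, 7 or 14 (D1, D4, D7, D14) after injury, from C57BL/6J WT mice and from Gsdme global KO mice, so that each of these 8 groups had 3 libraries. A further 3 came from control muscle of WT mice. The labels call these only control, and the study's methods describe the control as the uninjured muscle of the other leg, taken 24 hours after injury, so that control and WT D1 libraries may come from the same mice. Gasdermin E, the product of Gsdme, opens pores in cell membranes after cleavage by a caspase. The sample titles say KO and the genotype field says knockdown. The muscle is the gastrocnemius in the study's methods and thigh muscle in the deposited description, and ages were not given in the sources used here. A global KO lacks the protein in leukocytes and stromal cells as well as in muscle, and whole muscle was sequenced, so that fewer cells of a type and less RNA per cell cannot be told apart. Nothing in the labels ties each library to a separate animal, so that p-values measure the spread between libraries.

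In resting muscle, satellite cells lie beneath the sheath of the fibre and express Pax7. After injury they enter the cell cycle, and the basic helix-loop-helix factors Myf5 and Myod1 commit them to become myoblasts. Myog then drives their exit from the cell cycle and terminal differentiation, in partnership with MEF2 factors such as Mef2c, and Mymk and Mymx encode the membrane proteins that let myoblasts fuse. Myf6 is the member of the helix-loop-helix family that is kept on in adult fibres. Cdh15 encodes M-cadherin, an adhesion protein of satellite cells and myoblasts, and Des encodes desmin, the intermediate filament that links the sarcomeres of a fibre.

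The deposited build is mm10 per the submitters' processing notes, and positions follow GENCODE on the matching assembly. Myf5 (chr10:107482908-107486134) and Myf6 (chr10:107492853-107494737) lie on the minus strand with 6718 bases between them. Also on the minus strand are Pax7 (chr4:139737062-139833528), Mymk (chr2:27061636-27072179) and Mymx (chr17:45600971-45602102). The plus strand holds Myod1 (chr7:46376474-46379099), Myog (chr1:134289989-134292548), Des (chr1:75360329-75368579), Cdh15 (chr8:122847966-122867397) and Mef2c (chr13:83504034-83667080). Des overlaps the annotated Gm15179 on the other strand and Cdh15 overlaps Gm20388 on its own strand, and whether the counting used strand was not given in the sources used here, so that reads of these neighbours may have been shared. The other 8 members overlap no annotated gene.

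Helix-loop-helix factors of this family bind the E-box, CANNTG. Promoter sequences of RefSeq (GRCm38.p6, 250 bases before to 50 after the start of the gene) were given for 6 members, Des, Myog, Pax7, Cdh15, Myf5 and Mef2c, the last with 3 starts. The 4 printed here belong to Pax7, Myf5, Myog and Cdh15, which rose together from D1 to D4 in WT muscle as described below, and capitals mark each E-box on either strand.
Myog, chr1:134289754-134290053, plus strand: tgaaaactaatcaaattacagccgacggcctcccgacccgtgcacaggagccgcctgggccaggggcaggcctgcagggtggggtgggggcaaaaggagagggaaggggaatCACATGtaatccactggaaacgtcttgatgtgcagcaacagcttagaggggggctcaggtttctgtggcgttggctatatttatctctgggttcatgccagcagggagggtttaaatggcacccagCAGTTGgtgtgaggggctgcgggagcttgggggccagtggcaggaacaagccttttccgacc
Cdh15, chr8:122848124-122848423, plus strand: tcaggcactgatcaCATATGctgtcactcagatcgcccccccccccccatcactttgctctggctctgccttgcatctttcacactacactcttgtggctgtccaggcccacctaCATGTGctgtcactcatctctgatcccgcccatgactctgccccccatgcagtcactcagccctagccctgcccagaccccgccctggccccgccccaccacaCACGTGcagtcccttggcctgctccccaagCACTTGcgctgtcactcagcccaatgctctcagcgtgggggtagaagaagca
Pax7, chr4:139832919-139833218, minus strand: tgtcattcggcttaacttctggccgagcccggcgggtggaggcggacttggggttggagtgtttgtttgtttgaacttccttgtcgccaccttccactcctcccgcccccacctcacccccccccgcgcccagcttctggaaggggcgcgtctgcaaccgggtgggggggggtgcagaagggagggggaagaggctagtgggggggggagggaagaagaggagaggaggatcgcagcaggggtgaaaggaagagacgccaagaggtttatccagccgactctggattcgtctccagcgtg
Myf5, chr10:107486085-107486384, minus strand: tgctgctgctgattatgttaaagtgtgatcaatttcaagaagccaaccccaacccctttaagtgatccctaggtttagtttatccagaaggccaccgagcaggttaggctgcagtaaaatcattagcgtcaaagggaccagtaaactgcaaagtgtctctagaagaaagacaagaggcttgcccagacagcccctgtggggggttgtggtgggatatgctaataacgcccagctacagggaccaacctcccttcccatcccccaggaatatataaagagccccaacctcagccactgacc
The Myog window held 2 E-boxes, which begin 138 and 12 bases before the RefSeq start. The Cdh15 window held 4, at 236, 135, 32 and 2 bases before its RefSeq start, and the windows of Pax7 and Myf5 held none. The RefSeq start lies 408 bases inside the GENCODE gene for Cdh15, 560 for Pax7 and 15 for Myog, and is the same for Myf5, so that the Cdh15 and Pax7 windows fall within the gene as given above. Any E-box was in 72.3% of 32851 promoter windows of the same length, and 2 or more were in 39.6%. The variant CAGCTG, present in 16.3% of windows, was found in the Des window, 36 bases before the RefSeq start, and in none of the other members' windows, and CAGGTG, present in 20.2%, was in none of them. The MEF2 motif was searched only as YTAWWWWTAR, where Y is C or T, W is A or T and R is A or G. This strict form, present in 3.19%, was also in none. The Myog window holds ctatatttat, which differs from it only in the last base. These matches only describe the letters, and the absence of one says nothing about a factor.

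The libraries were checked first. Values are TPM (a length-corrected share of each library's transcripts), which keep no read number, so that depth is unknown. The libraries had 11785 to 14704 genes at 1 TPM or more. All 24 genes of a mature myofibre list were measured, and their summed level was from 63726 TPM in WT D4 replicate 1 to 294055 TPM in KO D7 replicate 2, so that the labelled tissue was present in every library. KO D4 replicate 2 stood apart from the other KO D4 libraries. Its summed myofibre level was 206607 TPM against 105028 and 175116, its summed leukocyte and macrophage level (20 genes, all tested) was 751 TPM against 5799 and 4776, its summed cell cycle level (20 genes) was 69.4 TPM against 321 and 232, and its summed level of acinar pancreas genes (16 genes) was 103 TPM against 12.1 and 25.5. The member tests that rest on KO D4 are therefore given with and without this library. WT D1 replicate 3 and KO D7 replicate 2 also stood apart in their groups. The first had a summed myofibre level of 248290 TPM against 149150 and 122715, a leukocyte and macrophage level of 1464 TPM against 4114 and 6833 and an acinar pancreas level of 64.7 TPM against 3.87 and 5.94. In KO D7 replicate 2 the myofibre level was 294055 TPM against 199647 and 198557, the leukocyte and macrophage level 794 TPM against 2029 and 1835 and the cell cycle level 69.1 TPM against 150 and 151. Gsdme was 2.63 to 4.85 TPM in the WT libraries of D1 and D4 and 1.00 to 2.17 TPM in the KO libraries of these days, with no overlap within D1, D4 or D7, whereas on D14 the KO range of 1.27 to 1.96 TPM overlapped the WT range of 1.46 to 2.26 TPM. Transcript of the targeted gene was thus lower but not absent in the libraries labelled KO, and on D14 it did not check the labels. The study describes 2 sequencing batches, one of 24-hour muscle and one of the time course, and the labels give none. The WT D1 libraries are in both tables, where the members differed by at most 6.76%, and their batch was not given in the sources used here. If it was that of the time course, injury on D1 cannot be told apart from batch. If it was that of the 24-hour muscle, this holds for the genotype difference on D1 and the WT step from D1 to D4. It then also holds for the test of that step between genotypes and for tests over all days.

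**Figure D1:**
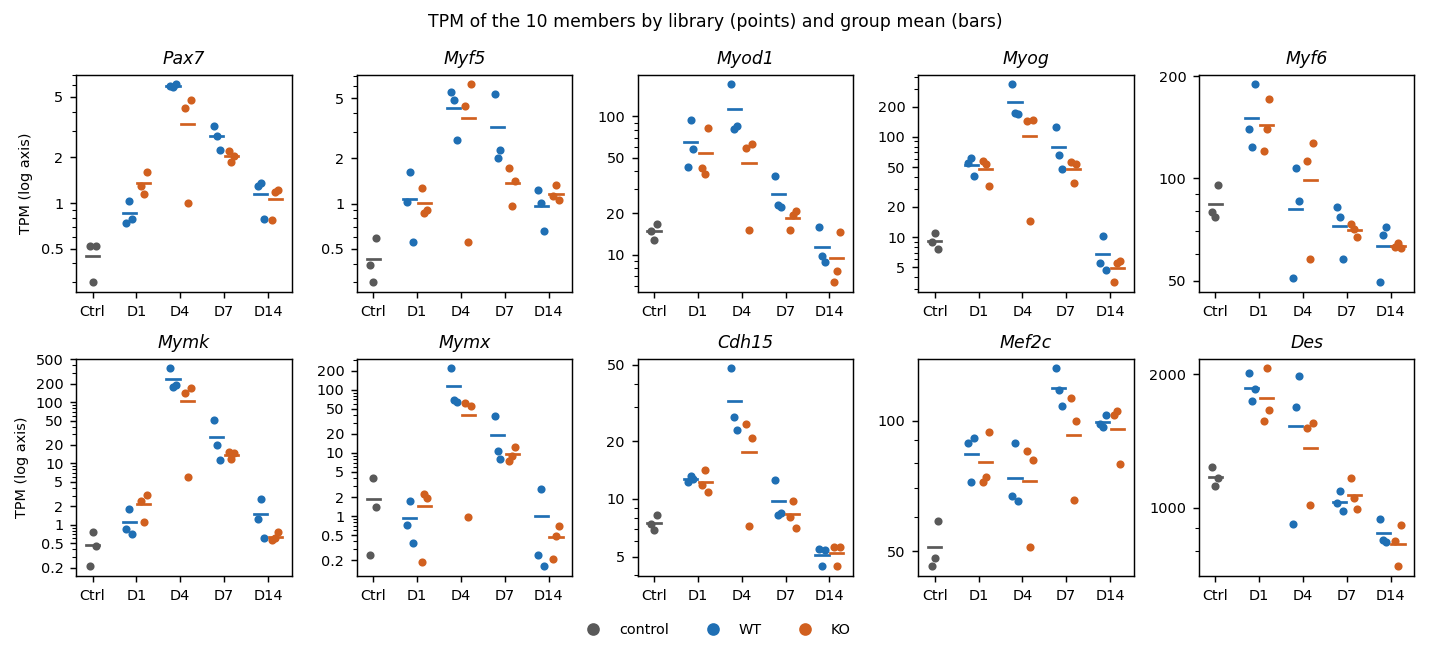
TPM on a log axis for the 10 members in each library (points, 3 per group), with the group mean as a bar, in control (grey), WT (blue) and KO (orange) muscle. Mymk and Mymx spanned wide ranges and were highest on D4, Myf6 and Des were highest on D1, and Mef2c was highest on D7 in WT muscle; the lone low orange point on D4 is KO D4 replicate 2.

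The first question was which regulators differ between control and injured WT muscle 1 day after CTX. Myod1 and Myog were called higher on D1 under each of the 3 scalings tried. Control libraries had 14.9, 12.8 and 16.6 TPM of Myod1, and WT D1 libraries had 43.0, 93.2 and 57.8. For Myog the control values were 8.82, 10.8 and 7.65 TPM and the D1 values 54.7, 61.4 and 41.1. Neither gene overlapped between the groups, and the share of all genes without overlap is not given here. The difference on the log2(TPM + 1) scale, which is used for all differences here, was 2.00 for Myod1 (SE 0.274, adjusted p = 0.0017) and 2.40 for Myog (SE 0.211, adjusted p = 0.000615) in limma, with adjustment over all 13041 genes tested in that table. Pax7, Myf5 and Mymk could not be tested here, since none of them had 1 TPM in 3 of these 6 libraries. In the control libraries Pax7 was 0.30 to 0.52 TPM, Myf5 0.30 to 0.59 TPM and Mymk 0.21 to 0.75 TPM.

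Of the 7 members tested, 6 were called higher (adjusted p under 0.05), where 61.1% of all genes were called and 55.4% were called higher. The other 4 were Myf6 (0.82, SE 0.197), Mef2c (0.73, SE 0.171), Cdh15 (0.69, SE 0.176) and Des (0.67, SE 0.182). These 4 lay close to the median difference of all genes, which was 0.66 in TPM as deposited, and none of the 4 was called under another scaling. With median-of-ratios scaling only Myod1 and Myog were called, where 42.4% of all genes were, and with quantile normalization the same 2 members were called, where 40.1% were. Without WT D1 replicate 3 there were 6, where 69.9% of all genes were called. Mymx was 0.24, 3.94 and 1.38 TPM in control and at most 1.71 TPM on D1 (difference -0.40, SE 0.478, adjusted p = 0.483), so that a change in it was not detectable.

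From D1 to D4 the fusion genes changed most among the members. Mymk, which encodes myomaker, was 0.85, 1.78 and 0.72 TPM in the WT D1 libraries and 353, 177 and 191 TPM in the WT D4 libraries. Mymx, which encodes myomixer, was 0.72, 1.71 and 0.37 TPM on D1 and 217, 68.2 and 63.0 TPM on D4. All D4 libraries were far above all D1 libraries. The difference was 6.80 for Mymk (SE 0.786, adjusted p = 3.44e-05) and 5.74 for Mymx (SE 0.928, adjusted p = 0.000381). Mymk thus passed from under 2 TPM to a level like that of Myog, at 169 to 334 TPM on D4.

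The stem cell factor Pax7 rose in the same interval. It was 0.74, 1.03 and 0.79 TPM in WT D1 muscle and 5.90, 5.84 and 6.05 TPM in WT D4 muscle (difference 1.91, SE 0.268, adjusted p = 0.000143). The 3 D4 libraries lay within 0.21 TPM of each other. Myf5 went from 0.56 to 1.63 TPM on D1 to 2.65 to 5.50 TPM on D4 (1.36, SE 0.405, adjusted p = 0.0232). Myog was 334, 173 and 169 TPM on D4 (2.03, SE 0.60, adjusted p = 0.0221), which was its highest level of the course. Cdh15 rose from 12.3, 13.1 and 12.7 TPM to 47.9, 26.9 and 22.9 TPM (1.22, SE 0.313, adjusted p = 0.00935). The adult factor Myf6 ran the other way, from 139, 124 and 189 TPM on D1 to 50.8, 107 and 85.6 TPM on D4 (-0.92, SE 0.272, adjusted p = 0.0212). Myod1, at 169, 81.1 and 85.4 TPM on D4, overlapped its D1 range and was not called, and neither were Mef2c and Des.

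In all, 7 of 10 members were called from D1 to D4 in WT muscle against 19.8% of all 15718 genes tested. Of these, 6 were higher against 14.6% of all genes, and 1 was lower against 5.27%. The median difference of the members was 1.29, and that of all genes 0.17. WT D4 replicate 1 had the highest Myod1, Myog, Mymk, Mymx and Cdh15 and the lowest summed myofibre level, and its part in the result was not tested beyond leaving it out: without it, 3 members (Pax7, Mymk and Mymx) were called, where 15.4% of all genes were. Without WT D1 replicate 3 there were 4 (Pax7, Mymk, Mymx and Cdh15), where 13.2% were.

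**Figure D2:**
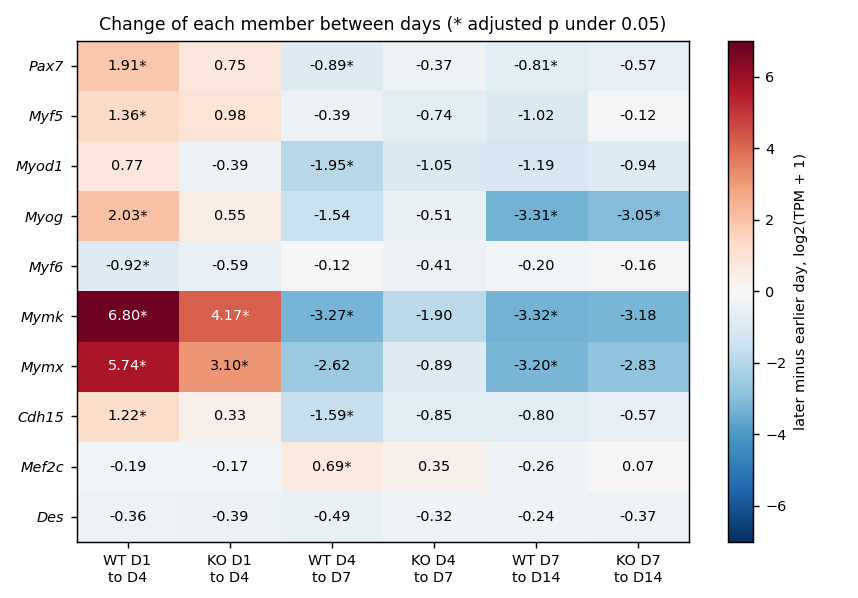
Change of each member (rows) between neighbouring days in WT and KO muscle (columns), as the later minus the earlier day on the log2(TPM + 1) scale; the colour and the printed number give the same value and a star marks an adjusted p under 0.05. The D1 to D4 columns hold the rises of Mymk and Mymx, by 6.80 and 5.74 in WT and by 4.17 and 3.10 in KO, and the later columns are mostly negative.

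From D4 to D7 most of these genes fell in WT muscle. The D7 libraries had 36.9, 23.0 and 22.0 TPM of Myod1 (difference -1.95, SE 0.461, adjusted p = 0.016), 50.3, 19.8 and 11.6 TPM of Mymk (-3.27, SE 0.786, adjusted p = 0.0173), 12.6, 8.24 and 8.49 TPM of Cdh15 (-1.59, SE 0.313, adjusted p = 0.00715) and 3.24, 2.78 and 2.23 TPM of Pax7 (-0.89, SE 0.268, adjusted p = 0.038). None of these overlapped D4, and the share of all genes without overlap in this step is not given here. Mef2c, the MEF2 factor, was the exception and rose from 67.1, 88.8 and 65.2 TPM to 132, 118 and 108 TPM (0.69, SE 0.207, adjusted p = 0.0373). Myog, at 125, 66.0 and 47.2 TPM (-1.54, SE 0.60), and Mymx, at 38.0, 10.7 and 8 TPM (-2.62, SE 0.928), were below all D4 libraries but were not called, with adjusted p of 0.0888 and 0.0664.

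Thus 5 of 10 members were called against 12.3% of all genes, 1 of them higher (3.04% of all genes) and 4 lower (9.31%). Pax7 was not called with median-of-ratios scaling, and the step rested on single libraries. Without WT D4 replicate 1 only Des was called, and lower, where 1.34% of all genes were called, without WT D7 replicate 2 or replicate 3 only Cdh15 was, where 1.71% and 1.37% of all genes were, and without WT D4 replicate 3 there were 3, where 10% were.

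By D14 the fusion and differentiation genes were near their D1 or control levels. WT D14 libraries had 5.51, 10.2 and 4.68 TPM of Myog (difference from D7 -3.31, SE 0.60, adjusted p = 0.00387), 1.26, 2.66 and 0.62 TPM of Mymk (-3.32, SE 0.786, adjusted p = 0.0095), 0.24, 2.66 and 0.16 TPM of Mymx (-3.20, SE 0.928, adjusted p = 0.0183) and 1.30, 1.36 and 0.78 TPM of Pax7 (-0.81, SE 0.268, adjusted p = 0.0307). The 4 were below their D7 libraries with no overlap, and the share of all genes so separated is not given here. These 4 of 10 members were called lower against 30.9% of all genes called lower and 31.8% called in all, and the median of all genes was -0.45, so that the share is near the background. The fall of Pax7 did not pass with median-of-ratios scaling or quantile normalization. The call count was 1 without WT D7 replicate 1, 2 without WT D14 replicate 1 and 1 without WT D14 replicate 3, where 4.01%, 21.8% and 1.82% of all genes were called. Myod1 at 15.8, 9.81 and 8.80 TPM and Myf5 at 1.24, 1.01 and 0.66 TPM were also below all D7 libraries and were not called (adjusted p = 0.0553 and 0.0592). On D14, Pax7 at 0.78 to 1.36 TPM lay above the 0.30 to 0.52 TPM of control muscle, and Myog at 4.68 to 10.2 TPM overlapped the control range of 7.65 to 10.8 TPM, but the tables were made separately and no test was run.

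Desmin and the adult factor moved over narrower ranges. Des was 1736 to 2009 TPM in WT D1, 918 to 1977 TPM in WT D4, 982 to 1092 TPM in WT D7 and 839 to 942 TPM in WT D14, and none of its steps was called. Myf6 was 57.9 to 82.6 TPM on D7 and 49.4 to 72.0 TPM on D14, and those 2 days overlapped. Mef2c on D14 was 96.5 to 103 TPM, below the 108 to 132 TPM of D7 and not called.

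In KO muscle, with all libraries, fewer members were called in the same steps, and the tests of whether the steps themselves differed are given further on. From D1 to D4, Mymk went from 2.40, 1.10 and 3.06 TPM to 140.0, 6.05 and 169 TPM (4.17, SE 0.786, adjusted p = 0.00176), and Mymx from 0.19, 2.22 and 1.91 TPM to 61.2, 0.96 and 56.2 TPM (3.10, SE 0.928, adjusted p = 0.0267). The second value on D4 is KO D4 replicate 2 in both, and without it the differences were 5.66 and 4.74. The 2 members were called, both higher, against 19.4% of all genes called and 7.18% called higher. Without KO D4 replicate 2 there were 6 (Pax7, Myf5, Myog, Mymk, Mymx and Cdh15, all higher), where 14.6% of all genes were called, and without KO D1 replicate 1 or 3, or KO D4 replicate 1 or 3, there was 1, where 10.4%, 6.97%, 25.3% and 13.3% of all genes were. From D4 to D7, limma called 0 members and 0% of all genes, and 3 members (Cdh15, Mymk and Myod1, all lower) had an unadjusted p under 0.05 against 9.89% of all genes. Without KO D4 replicate 2, 7 members were called lower (Pax7, Myf5, Myod1, Myog, Mymk, Mymx and Cdh15), where 8.75% of all genes were called, and without KO D7 replicate 2 there were 0, where 0.102% were. From D7 to D14 only Myog was called, lower, from 55.5, 35.0 and 53.9 TPM to 3.53, 5.47 and 5.71 TPM (-3.05, SE 0.60, adjusted p = 0.0232), where 0.56% of all genes were called and 0.477% were lower. This call was lost without any one of KO D7 replicates 1 and 3 and KO D14 replicates 1, 2 and 3, and it held without KO D7 replicate 2, where 2.42% of all genes were called.

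The second question was whether KO and WT muscle differed. No member was called on any day. On D4, 9 of 10 members had a lower mean in KO (7 of 10 with median-of-ratios scaling or quantile normalization, where Mef2c and Des turned), and for 5 of them (Pax7, Myod1, Myog, Mymk and Mymx) all KO libraries were below all WT libraries, against 11.2% of all genes with such a separation in that direction. Pax7 was 4.25, 1.00 and 4.76 TPM in KO D4 and 5.84 to 6.05 TPM in WT D4 (difference -0.82, SE 0.268). Myod1 was 59.0, 15.1 and 63.3 TPM in KO and 81.1 to 169 TPM in WT (-1.43, SE 0.461). Myog was 143, 14.3 and 146 TPM in KO and 169 to 334 TPM in WT (-1.64, SE 0.60). Mymk at 140.0, 6.05 and 169 TPM differed by -2.05 (SE 0.786), and Mymx at 61.2, 0.96 and 56.2 TPM by -2.37 (SE 0.928). The adjusted p was 0.212 for each of these 5 and for Cdh15, which was 24.7, 7.26 and 20.9 TPM in KO and overlapped WT (-0.94, SE 0.313).

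In limma 0 of 10 members passed on D4, as did 0% of all genes. Those 6 members had an unadjusted p under 0.05, all lower, against 22.7% of all genes and 19.1% lower, and the median of all genes was -0.28 on that day. Without KO D4 replicate 2, 1 member had such a p (Myf6, higher), where 4.1% of all genes had, and without WT D4 replicate 1 there were 3, where 6.76% had. With quality weights or only the compared groups there was 1, where 5.62% and 3.91% had. With 3 against 3 libraries, the exact two-sided permutation p was 0.1 for each of the 5 separated members, which is the smallest it can give. Leaving out KO D4 replicate 2 took the difference to -0.33 for Pax7, -0.78 for Myod1, -0.56 for Myog, -0.57 for Mymk, -0.73 for Mymx and -0.43 for Cdh15. Without WT D4 replicate 1, in turn, these were -0.82, -1.09, -1.32, -1.74, -1.80 and -0.63. Myf5 (-0.40, SE 0.405), Mef2c (-0.04, SE 0.207) and Des (-0.12, SE 0.219) overlapped between genotypes, and their sign turned without KO D4 replicate 2. Myf6 was 112, 58.1 and 127 TPM in KO and 50.8 to 107 TPM in WT (0.27, SE 0.272). Of the other measures, the summed myofibre level of the D4 libraries was 63726 to 130195 TPM in WT and 105028 to 206607 TPM in KO, and the summed leukocyte and macrophage level was 4177 to 9627 TPM in WT and 751 to 5799 TPM in KO. Their part in the member differences was not tested.

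**Figure D3:**
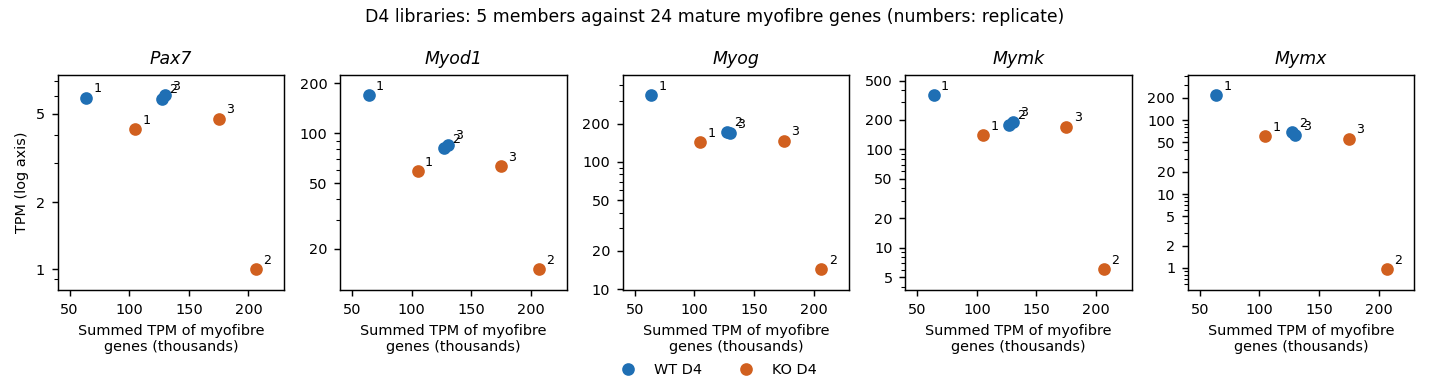
TPM of 5 members (log axis) against the summed TPM of 24 mature myofibre genes in the 6 D4 libraries, WT in blue and KO in orange, labelled with the replicate number. WT D4 replicate 1, at 63726 TPM of myofibre genes, is highest in Myod1, Myog, Mymk and Mymx, and KO D4 replicate 2, at 206607 TPM, is lowest in all 5.

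On D1, Pax7 ran in the other direction and was 1.30, 1.15 and 1.59 TPM in KO against 0.74 to 1.03 TPM in WT, with no overlap, as for 3.33% of all genes that were higher. The other 9 members overlapped. On D7, Pax7 (1.86 to 2.20 TPM in KO, 2.23 to 3.24 TPM in WT), Myf5 (0.97 to 1.73 and 2.01 to 5.35 TPM) and Myod1 (15.1 to 20.7 and 22.0 to 36.9 TPM) were lower in every KO library, as were 14.6% of all genes, and the median of all genes was -0.19. On D14 the 10 members overlapped, where 8.42% of all genes did not. In limma 0 members were called on D1, D7 or D14, where 0.00636%, 0% and 0% of all genes were, and 0 members had an unadjusted p under 0.05, where 5.38%, 3.06% and 2.06% of all genes had. The exact permutation p was 0.1 for the separated members on D1 and D7, again the smallest possible. Without WT D1 replicate 3 on D1 and without KO D7 replicate 2 on D7, 0 members had an unadjusted p under 0.05, where 1.83% and 1.36% of all genes had.

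**Figure D4:**
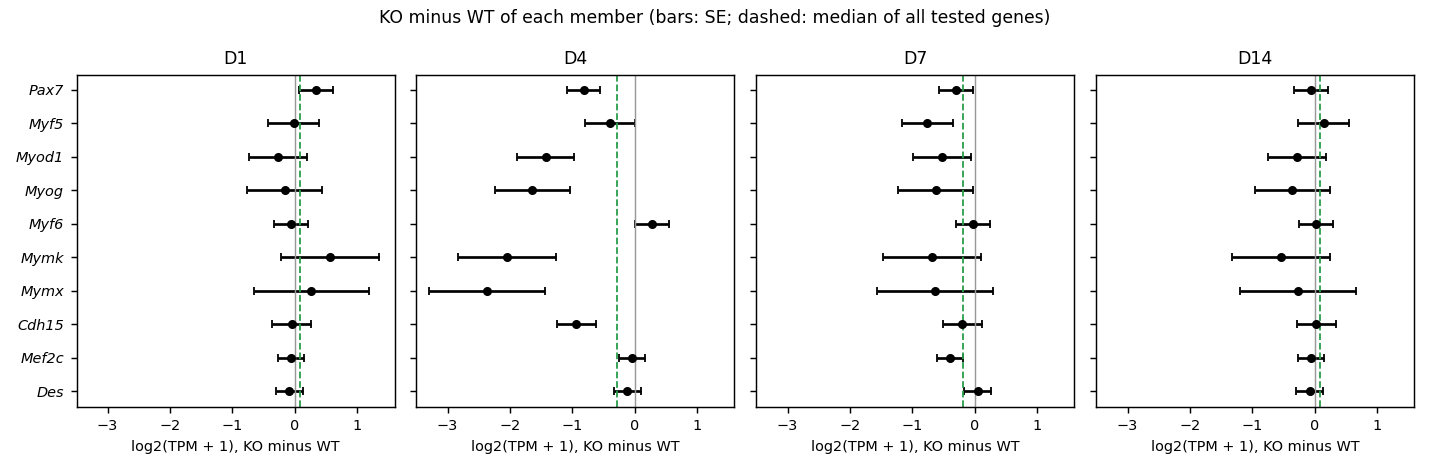
KO minus WT of each member on each day on the log2(TPM + 1) scale, with the SE of the limma fit as bars, 0 as a solid line and the median of all 15718 tested genes as a dashed line (0.09, -0.28, -0.19 and 0.08 from D1 to D14). The D4 differences of Mymx, Mymk, Myog and Myod1 lie farthest below 0, at -2.37, -2.05, -1.64 and -1.43, and most bars of the other days cross 0.

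Averaged over the 4 days, Myod1 was -0.62 (SE 0.231) and Myog -0.70 (SE 0.3) in KO, with a lower mean on 4 of 4 days for both. Exact two-sided permutation of genotype within days gave p of 0.0137 for Myod1 and 0.014 for Myog among the 10 members computed, and neither passed over all genes (adjusted p = 0.861 for both). Of all genes, 0.00636% were called on the average and 3.54% had an unadjusted p under 0.05, as did these 2 members. Without KO D4 replicate 2 the averages were -0.46 and -0.43, with exact permutation p of 0.0267 and 0.0291 and 2.47% of all genes at an unadjusted p under 0.05. The F test of whether the genotype difference varied with day called 0 members and 0% of all genes. Pax7 was the 1 member with an unadjusted p under 0.05 in it (adjusted p = 0.527), where 7.65% of all genes had one. It was again the 1 such member without KO D4 replicate 2, where 5.17% had, and 0 were called. For the step from D1 to D4, KO minus WT was -1.16 for Pax7 (SE 0.379) and -2.63 for Mymk (SE 1.11), beside a median of -0.38 over all genes. Neither was called in limma (adjusted p = 0.204 for both). Without KO D4 replicate 2 the differences were -0.67 and -1.14, beside a median of -0.21. Pax7 and Mymk were the 2 members with an unadjusted p under 0.05 in that test, where 23.3% of all genes had one and 0% were called. Without KO D4 replicate 2 there was 1 (Pax7), where 8.8% had. For the steps from D4 to D7 and from D7 to D14, 0 members had an unadjusted p under 0.05, where 2.83% and 3.09% of all genes had, and 0 members and 0% of genes were called. In the first of these, 2 members (Myf5 and Mef2c) had one without KO D4 replicate 2, where 2.54% of all genes had.

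Ratios between members within a library do not move with the scaling of that library, and are given as a description. The ratio of Myog, which acts in terminal differentiation, to Myod1, which acts before it, was 0.46 to 0.85 in control, 0.66 to 1.27 in WT D1, 1.97 to 2.13 in WT D4, 2.15 to 3.38 in WT D7 and 0.35 to 1.04 in WT D14. In KO it was 0.39 to 1.39 on D1, 1.82 to 3.68 on D7 and 0.39 to 0.71 on D14. On D4 it was 2.42 and 2.31 in KO replicates 1 and 3, above the 3 WT libraries, and 0.95 in KO replicate 2. Thus in 5 of the 6 D4 libraries Myog exceeded Myod1 by a like factor although Myod1 itself ranged from 59.0 to 169 TPM among them.

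Mymk reached the level of Myog on D4, in 5 of 6 libraries, and on no other day. The ratio of Mymk to Myog was 1.02 to 1.13 in WT D4 and 0.98, 0.42 and 1.16 in KO D4, whereas it was at most 0.10 on D1 in either genotype, 0.24 to 0.40 on D7 in WT and 0.27 to 0.33 on D7 in KO. Myf6 exceeded Myog by 7.11 to 12.5 times in control and by 6.66 to 15.4 times in WT D14. It was below Myog in the 3 WT D4 libraries (0.15, 0.62 and 0.51 times), and in KO D4 the ratio was 0.79, 4.05 and 0.87. Des exceeded Myog 103 to 152 times in control, 2.75 to 11.7 times in WT D4 and 10.6, 70.7 and 10.6 times in KO D4. Mymx was below Mymk in each of the 6 D4 libraries (0.33 to 0.61 times in WT and 0.16 to 0.44 times in KO). For Myod1 to Pax7 the ratio was 58.1 to 90.5 in WT D1, 13.9 to 28.7 in WT D4, 8.27 to 11.4 in WT D7 and 7.21 to 12.1 in WT D14. These ratios compare levels per length, since TPM is divided by transcript length.

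**Figure D5:**
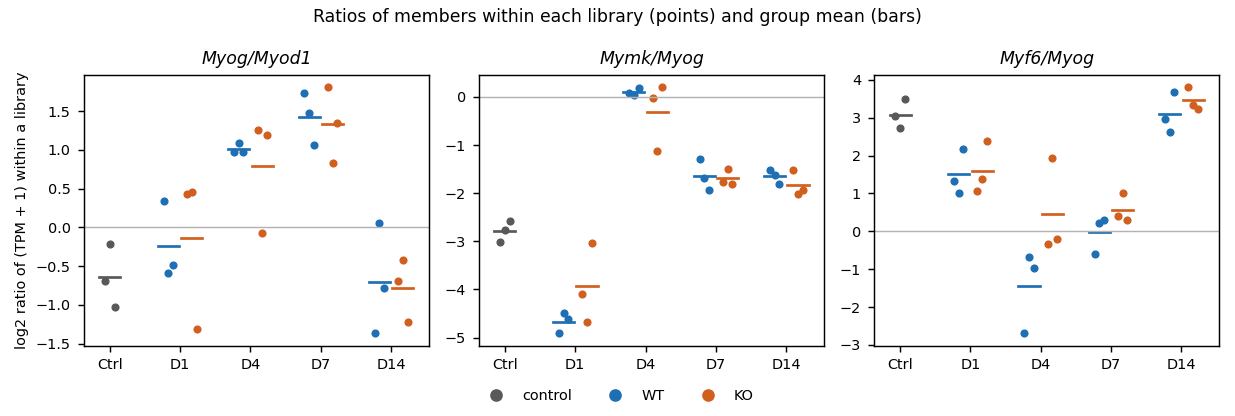
Log2 ratio of (TPM + 1) between 2 members within each library (points) and the group mean (bars) for Myog to Myod1, Mymk to Myog and Myf6 to Myog, in control (grey), WT (blue) and KO (orange). Myog to Myod1 rose to a mean of 1.43 in WT D7 and 1.33 in KO D7, Mymk to Myog was near 0 on D4, and KO D4 replicate 2 stands apart from the other D4 libraries in each panel.

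Genes around the members were followed in lists, which were also chosen with earlier results of these data known. Their counts are read against the share of all genes called in the same direction. Those shares were 14.6% higher and 5.27% lower from D1 to D4, 3.04% and 9.31% from D4 to D7 and 30.9% lower from D7 to D14 in WT muscle, and 7.18% higher and 12.2% lower from D1 to D4 and 0.477% lower from D7 to D14 in KO muscle. With median-of-ratios scaling they were 11.6% higher and 13.3% lower for WT D1 to D4, 5.9% higher for WT D4 to D7, 8.61% lower for WT D7 to D14, 11.3% higher for KO D1 to D4 and 1.94% lower for KO D7 to D14. Without KO D4 replicate 2 they were 9.26% higher and 5.36% lower for KO D1 to D4 and 8.08% lower for KO D4 to D7.

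Of 27 targets and early differentiation genes, such as embryonic myosins and acetylcholine receptor subunits, 18 rose and 0 fell from D1 to D4 in WT muscle (median 2.30), led by the embryonic and perinatal myosins Myh3 (8.50) and Myh8 (7.43). From D4 to D7, 10 of the 27 fell, among them Chrng, the foetal receptor subunit (-4.23), and 14 fell from D7 to D14 (9 with median-of-ratios scaling), led by Myh3 (-5.32). In KO muscle 13 rose from D1 to D4 (Myh8 5.40, Myh3 5.20), or 18 without KO D4 replicate 2, which is as many as in WT, 0 were called from D4 to D7 (14 fell without KO D4 replicate 2), and 3 fell from D7 to D14 (Igf2, Actc1 and Cdkn1c), or 7 with that scaling. The median of KO minus WT over the 27 was 0.07, -1.04, -0.42 and 0.00 from D1 to D14 with 0 called, beside 0.09, -0.28, -0.19 and 0.08 over all genes. The D4 median without KO D4 replicate 2 was -0.28, beside -0.11 over all genes.

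Of the satellite cell surface and quiescence list, 16 of 18 genes were tested in the injured table, and 7 rose and 0 fell from D1 to D4 in WT (4 and 1 with median-of-ratios scaling), with the largest rises in the growth factor receptor Fgfr4 (2.75) and the Notch effector Heyl (2.53). From D4 to D7, 4 fell, the laminin receptor subunit Itga7 most (-1.25), and 12 fell from D7 to D14, which became 4 with that scaling. In KO, 3 rose from D1 to D4 (Heyl 1.56, Dag1 0.68 and Spry1 0.65), 7 with that scaling and 6 without KO D4 replicate 2. Among 21 partners and antagonists of the myogenic factors, 5 rose and 2 fell from D1 to D4 in WT: Msc, which encodes a repressor of the family, rose (2.77), and the growth inhibitor Mstn fell (-2.01). In KO 3 rose and 3 fell (2 and 0 without KO D4 replicate 2), with Msc at 2.14. On D1 against control the inhibitor Id2 was 2.55 higher, where 11 of 21 partners were called higher and 1 lower, which is near the 55.4% and 5.64% of all genes, and with median-of-ratios scaling 4 were higher and 4 lower, again near the 21.2% of all genes in either direction.

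Of 16 myoblast adhesion and fusion genes other than the members, 4 rose from D1 to D4 in WT, with N-cadherin Cdh2 at 2.00 and the junction protein Jam3 at 1.55, and 1, the membrane repair gene Dysf, fell (-0.86), or 3 with median-of-ratios scaling. In KO 0 rose and 3 fell, and 3 rose with that scaling or without KO D4 replicate 2. From D7 to D14 in WT 11 of the 16 fell, led by Adam12 (-3.36), and 4 with the same scaling. The intermediate filament and desmin partner list (11 tested) had 0 rises and 3 falls from D1 to D4 in WT: Cryab, a chaperone of desmin, Synm and Mtm1 fell (-1.85, -1.33 and -0.72). From D4 to D7 in WT 3 rose (5 with median-of-ratios scaling), the keratin Krt18 (1.99), Synm (1.10) and dystrophin Dmd (0.94). In KO minus WT, no gene of these lists was called on any day.

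Markers of other cells also changed between days. In WT, of 24 mature myofibre genes, 8 fell from D1 to D4 (Pvalb -1.62) and 4 rose from D4 to D7 (Pvalb 2.06). Of 20 leukocyte and macrophage genes, 3 rose and 2 fell from D1 to D4, against 14.6% and 5.27% of all genes, and 13 fell from D7 to D14, which became 4 and 8 falls with median-of-ratios scaling. The 20 cell cycle genes gave 0 calls from D1 to D4 and 18 falls from D7 to D14 (Cdk1 -3.63). Of 12 fibro-adipogenic progenitor genes, 7 rose from D1 to D4 (Col1a1 3.09), and of 12 smooth muscle and pericyte genes 6 did (Acta2 2.15), whereas 1 of 12 endothelial genes fell (Flt1 -0.74). Of 8 acinar pancreas genes tested, 0 were called in that step. In KO from D1 to D4, 4 myofibre genes rose and 0 fell, 7 leukocyte and macrophage genes fell (median -1.57) and 4 cell cycle genes fell (median -1.34), which without KO D4 replicate 2 became 3, 4 (-0.70) and 0 (-0.66). Of the progenitor genes 6 rose in KO, 8 without that library, of the smooth muscle genes 4 rose, 2 without it, 1 endothelial gene fell, 4 without it, and 1 acinar gene rose, 0 without it. From D4 to D7 in KO 0 genes of these lists were called, and 7 leukocyte and macrophage genes fell without KO D4 replicate 2. From D7 to D14 in KO 0 genes of these lists were called either, where 0.56% of all genes were. The medians of that step were -1.21 for leukocyte and macrophage genes and -1.10 for cell cycle genes, beside -0.19 over all genes. The part of these cells in the member changes was not tested.

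Likeness of pattern was described over the 24 injured libraries among 9500 genes with a mean of at least 5 TPM. Since these libraries share days and KO D4 replicate 2, the r values carry no p. The genes most like Mymk were the cardiac and embryonic troponin Tnnt2 (r = 0.985), the embryonic myosin light chain Myl4 (0.984) and Grb10 (0.976). Mymx was closest to Fgfr4 (0.975) and Tnnt2 (0.972), and Pax7 also to Fgfr4 (0.978), followed by Mmp11 (0.974) and Pcbd1 (0.969). For Myog these were P3h1 (0.973), Kdelr1 (0.968) and Atat1 (0.964), for Myod1 Polr2a (0.974), Fbxo17 (0.969) and Otub1 (0.962), for Cdh15 Pkig (0.964) and for Myf5 Nudt2 (0.925). Des was closest to the small heat shock gene Hspb1 (0.930) and to Klhl40 (0.928), Myf6 to Pdlim3 (0.911) and Mef2c to Dmd (0.894). Among the members themselves, Mymk and Mymx (r = 0.976) and Pax7 and Mymk (0.974) were most alike and Cdh15 and Mef2c least (-0.38).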

How the data were processed

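RNA-seq of mouse muscle gave 27 libraries (SMARTER mRNA kit, paired ends, Illumina). The authors deposited TPM per gene and library in 2 tables, one of 24 injured libraries and one of 3 control and 3 WT D1 libraries, with the genome build mm10 per the submitters' processing notes. The aligner, counting tool and annotation were not given in the sources used here. Deposited group means were not used, and 0 columns belonged to no sample of the series. Groups and replicate numbers came from the sample titles.

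Members were the rows whose gene name matched, and they and the gene lists were chosen with earlier results of these data known. Values were analysed as log2(TPM + 1), which understates changes of low genes. Genes with at least 1 TPM in at least 3 libraries were tested (15718 in the injured and 13041 in the control table) with limma 3.58.1 in R 4.3.3, using group means, a variance trend and Benjamini-Hochberg adjustment over all genes, with 0.05 as the threshold. The study lists genes that differed between KO and WT muscle by adjusted P, but does not name the test used. Its calls were not compared with those given here. The fit was tested on simulated data. Since TPM keeps no depth, no counting interval was computed. Single values were tested by exact two-sided permutation (20 assignments per day, 160000 over 4 days, or 80000 without KO D4 replicate 2). Alternatives were a pseudocount of 0.1, no filter or 5 TPM, median-of-ratios scaling, quantile normalization, library quality weights, a replicate block, only the compared groups and each library left out. All members were named. Other genes were named from among the 2 called genes with the largest and the 2 with the smallest difference per list. For likeness they came from among the 3 genes of highest Pearson r per member. Not all of these were named. No protein sequences were used.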

Additional observations from a re-analysis of the deposited data

Results flagged for a closer look

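Pax7 was the member whose genotype difference changed direction between days with no overlap of libraries. All 3 KO libraries were above all 3 WT libraries on D1 and below them on D4 and on D7. Of all genes, 3.33% were separated as higher on D1, 11.2% as lower on D4 and 14.6% as lower on D7. The share of all genes that changed direction in this way was not computed. If the WT D1 libraries were sequenced in the batch of the control muscle, the D1 difference cannot be told apart from batch. The change of direction from D1 cannot then be told apart from it either. On the log2(TPM + 1) scale, KO minus WT on D4 less KO minus WT on D1 was -1.16, and on D7 less D1 it was -0.64. The first of these was tested as an interaction in limma and was not called (adjusted p = 0.204), and the second was not tested as a contrast of its own. The F test over all 4 days gave an adjusted p of 0.527. Pax7 was at most 1.59 TPM on D1, KO D4 replicate 2 had 1.00 TPM, and without that library the first difference was -0.67. Groups of 3 libraries are too small for a test of single outlying libraries.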

How the results depend on the processing

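Of 1012 recomputed values for single members and ratios, 878 kept their direction and side of the threshold or moved by less than the spread, 37 newly passed, 67 no longer passed, 15 moved and 15 changed sign. All ratios that moved did so with a pseudocount of 0.1. The number of members called on D1 against control (6) was 2 with median-of-ratios scaling and 2 with quantile normalization, and 4 to 6 with a library left out. With these scalings Cdh15 turned to -0.025 and -0.11, and with the first Mef2c turned to -0.045 and Des to -0.12. For WT D1 to D4 (7) the range with a library left out was 3 to 7. For WT D4 to D7 (5) it was 1 to 5, with 3 for no filter and 10 for quality weights, where 4.55% and 67.4% of all genes were called against 12.3%. For WT D7 to D14 (4) it was 1 to 4, with 7 for quality weights and 7 for only the compared groups (60.5% and 50.3% of all genes against 31.8%). For KO D1 to D4 (2) it was 1 to 6, with 1 for no filter, 4 for either scaling and 0 for only the compared groups (7.27%, 26.3% or 26.7%, and 0.946% of all genes against 19.4%). For KO D4 to D7 (0) it was 0 to 7, with 2 for quality weights (1.77% of all genes). For KO D7 to D14 (1) it was 0 to 1, with 2 for a pseudocount of 0.1, 0 for no filter, 2 for either scaling, 7 for quality weights and 3 for only the compared groups (0.541%, 0.141%, 2.75% or 2.64%, 50% and 0.973% of all genes against 0.56%). The causes were not tested. The number of members called in KO minus WT was 0 in every setting. On D4 the sign turned for Mef2c (0.30) and Des (0.23) with median-of-ratios scaling, for Mef2c (0.21) and Des (0.11) with quantile normalization and for Myf6 (-0.050) with quality weights. With a library left out these D4 differences were -0.83 to 0.27 for Myf5, -0.029 to 0.62 for Myf6, -0.18 to 0.19 for Mef2c and -0.45 to 0.10 for Des. Of 504 recomputed list counts, 73 moved by over 1.5 times.

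Replicate numbers were not taken to pair the libraries, since same-numbered deviations of WT and KO did not all correlate above 0.1 on any day, and those of control and WT D1 correlated at 0.0021 to 0.061. If control and WT D1 muscle came from the same mice, the labels do not say which numbers belong together. With a replicate block the members called were 6 for D1 against control, 7, 5 and 5 for the WT steps, 2, 0 and 1 for the KO steps and 0 for KO minus WT. Depth is unknown for TPM, so that low levels, such as those of Pax7, Myf5 and Mymk in control muscle, carry no limit of detection.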
